A study of Homo sapiens with 36 samples.

Results

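To describe how promoter marks and AP-1 binding differ at the laminin genes between a lung adenocarcinoma line and a bronchial epithelial line, chromatin immunoprecipitation followed by sequencing (ChIP-seq) peaks were examined at LAMA3, LAMA4, LAMA5, LAMB1, LAMB3 and LAMC1. These 6 genes were given by name out of 20033 protein-coding genes of the GENCODE annotation, and all 6 were found there. A peak was assigned to a gene if it lay within 3 kb of any of its annotated start sites or across its body, and JunB, Jun and JunD peaks were followed to 100 kb from a start site.

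Laminins are large secreted glycoproteins of the basement membrane, the sheet of matrix on which epithelial cells rest. Each is a trimer of an α, a β and a γ chain, and the chain genes expressed by a cell decide which trimers it can secrete. The α chains carry the sites that integrins bind, so that epithelial cells attach to the sheet mainly through them, and breaking through this sheet is a step in the invasion of carcinomas. AP-1 is a dimeric transcription factor made of Jun-family and Fos-family proteins that binds the short palindromic motif TGAGTCA, which reads TGACTCA on the other strand.

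A549 is a human lung adenocarcinoma cell line, and B2B (BEAS-2B) is an immortalised, non-cancerous line of human bronchial epithelium, and the labels name no treatment for either. RNA polymerase II (pol II) and H3K4me3, marks of promoters, Med1 and H3K27ac, marks of active regulatory elements, and JunB, Jun and JunD were analysed in both lines, and CTCF and the cohesin subunit Rad21 in B2B. The authors merged 2 replicates of each target before they called peaks on hg38, so each of the 16 lists is a pool, no spread between replicates can be given, and differences between the lines were not tested. Each line is a single culture-adapted line, so a difference between them belongs to these lines, and cancer cannot be told apart from any other difference between them.

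The lists held from 8563 peaks (JunB in B2B) to 61225 peaks (CTCF in B2B), the depth of sequencing behind them was not given, and the median pileup at a summit, over 1000 randomly drawn peaks of each list, ran from 19 to 103 reads. Of the 16 lists, 4 ended early: H3K27ac in A549 on chromosome 13, Med1 in both lines on chromosome 15 and pol II in A549 on chromosome 20. LAMA3 on chromosome 18 was therefore covered by 13 lists and LAMA5 on chromosome 20 by 12, while the other 4 genes were covered by all 16. Of 5 epithelial markers, 4 had an H3K4me3 peak within 3 kb of a start site in each line (EPCAM, CDH1, KRT8 and KRT18, not KRT19), as did 4 of 4 mesenchymal markers, while neither line had one at the 2 endothelial markers. Basal airway markers had one at 1 of 4 genes in each line, lung lineage markers at 3 of 4 in A549 and 2 of 4 in B2B, and blood markers at 2 of 2 in A549 and 0 of 2 in B2B. CDKN2A and CDKN2B, which are known to be deleted in A549, had none in A549 and had one each in B2B.

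First, the promoters were compared. Over the 19 pairs of a laminin gene and a target among pol II, H3K4me3, Med1 and H3K27ac that both lists covered, 16 had a peak in A549 and 13 in B2B. Over the 18 pairs with a Jun-family protein, 12 had a peak in A549 and 6 in B2B. If only the annotated start of each gene was used instead of all its start sites, the Jun-family counts were 9 in A549 and 2 in B2B. H3K4me3 was present at all 6 genes in A549, where 73.7% of protein-coding genes had such a peak, and at 5 of 6 in B2B, against 62.7%, with LAMB3 the exception. Pol II was present at 4 of 5 covered genes in A549, against 69.6%, and at 3 of 6 in B2B, against 50.9%. H3K27ac was present at 4 of 4 covered genes in A549, against 73.5%, and at 5 of 6 in B2B, against 64.9%. Med1 was present at LAMB1 and LAMC1 alone in both lines, which is 2 of 4 covered genes against 54.7% in A549 and 61.1% in B2B.

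Among the Jun-family proteins, JunB had a peak at 4 of 6 laminin genes in A549 (LAMA5, LAMB1, LAMB3 and LAMC1), against 31.1% of protein-coding genes. In B2B it had one at 1 of 6 (LAMC1), against 5.28%. This peak of B2B lay near an internal start site, 70776 bp downstream of the canonical start, with a fold of 6.11 (17 reads). Jun had a peak at all 6 in A549, against 38.2%, and at 5 of 6 in B2B, against 25.4%, with LAMB1 the exception. JunD had a peak at LAMA5 and LAMC1 in A549, which is 2 of 6 against 17.8%, and at 0 of 6 in B2B, against 3.21%. CTCF and Rad21 in B2B each had a peak at 5 of 6 genes, against 50.1% and 67.9%, and neither had one at LAMB3. The order of the lines at the laminin genes was thus the order of the background for 6 of the 7 targets, and Med1 was level. The laminin genes have 5 to 21 start sites each and windows of 13.1 to 59.8 kb, compared with medians of 5 start sites and 12.1 kb over protein-coding genes, and the part of this in the shares above was not tested.

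**Figure D1:**
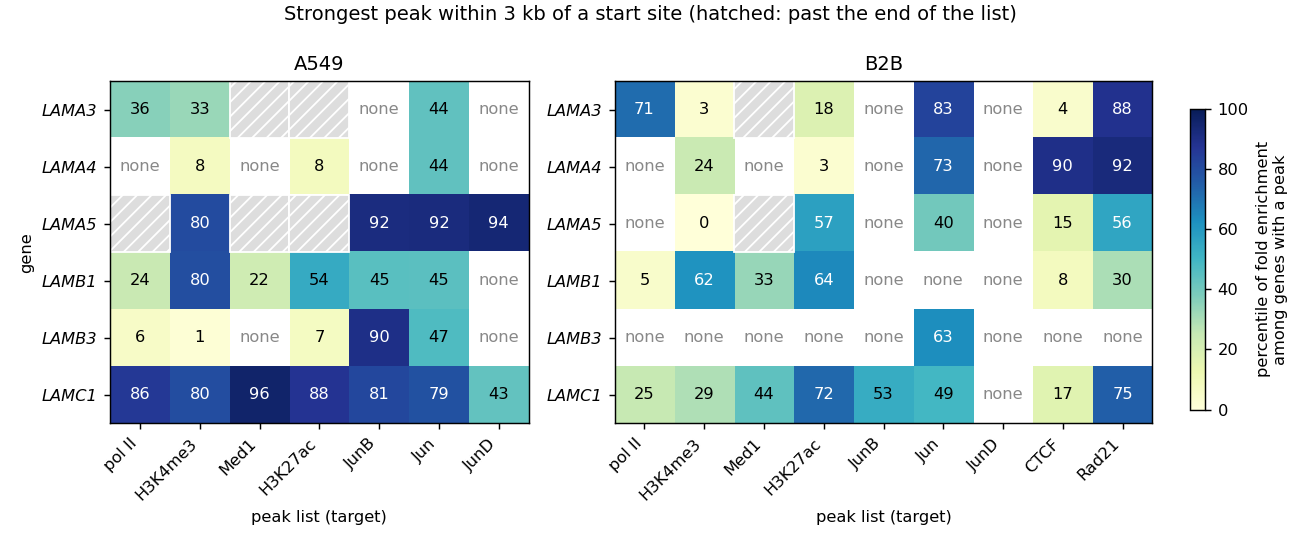
Strongest peak within 3 kb of any start site of each laminin gene (rows) in each peak list (columns) of A549 (left) and B2B (right). Numbers and colours give the percentile of its fold enrichment among all protein-coding genes with a peak in that list, "none" marks a covered gene without a peak, and hatching marks genes past the end of a list. LAMC1 was filled in all 7 lists of A549, and LAMB3 had Jun as its only peak in B2B.

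The fold enrichment of a peak is the ratio of the reads piled up at its summit to the local background of the peak caller, after 1 is added to each. Both terms could be solved from the deposited values. At the laminin starts the background lay between 1.3 and 3.6 reads in the A549 lists of pol II, H3K4me3 and H3K27ac shown in the plot of pileup and background, and between 18.9 and 87.5 reads in those of B2B. Over the same 1000 peaks of each list the median background was 3.3 reads in A549 and 25.8 in B2B for H3K4me3, 2.4 and 8.8 for pol II and 2.3 and 11.5 for H3K27ac. For Med1 (1.7 and 2.0), JunB (2.5 and 2.3), Jun (1.4 and 1.3) and JunD (2.9 and 2.7) this median was alike in both lines. At single laminin sites the Jun background was not always alike. Some 0.7 kb upstream of LAMC1 it was 2.5 reads in A549 and 8.3 in B2B. Near +1.0 kb of LAMB3 it was 2.0 and 5.2 reads, and at +17.2 kb of LAMA5 it was also higher in B2B. At the internal start sites of LAMA3 and LAMA4 it was 1.0 and 1.2 reads. Because of these differences, fold enrichments of pol II, H3K4me3 and H3K27ac are given below with pileup and background. Those of Jun are given with both at some sites only. The part of the background in the lower folds and fewer calls of B2B, those of Jun included, was not tested.

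**Figure D2:**
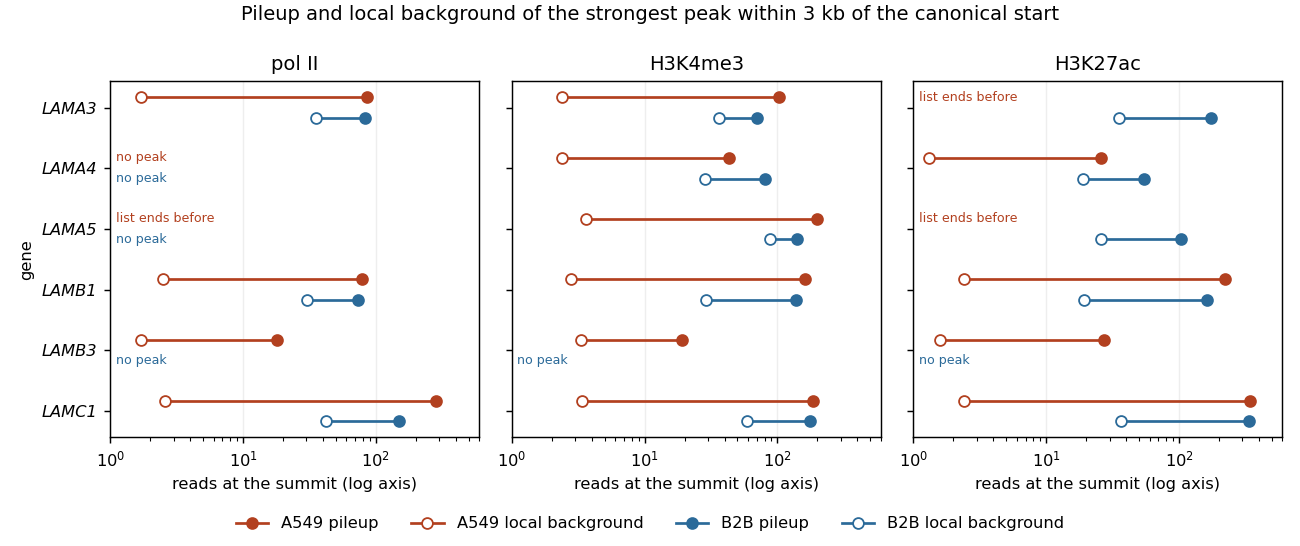
Reads at the summit (log axis) of the strongest pol II, H3K4me3 and H3K27ac peak within 3 kb of the canonical start of each laminin gene, in A549 (red) and B2B (blue). Filled circles are the pileup and open circles the local background, so the length of a line on the log axis shows the fold enrichment. For H3K4me3 at LAMA5 the pileup was 198 reads in A549 and 141 in B2B, and the background was 3.6 and 87.5 reads.

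The results are given chain by chain, starting with the α chains. LAMA3 (ENSG00000053747.17, chr18:23689453-23956222, plus strand) encodes the α3 chain of the laminins that anchor epithelia through hemidesmosomes, and it has a long form and short forms that start inside the gene. At the start of the long form, pol II had a fold of 32.8 in A549 (86 reads over a background of 1.7) and 2.31 in B2B (83 reads over 35.3). H3K4me3 had a fold of 30.0 in A549 (102 reads over 2.4) and 1.90 in B2B (70 reads over 36.4). H3K27ac had a fold of 4.83 in B2B (175 reads over 35.5), and the A549 list ended before this gene. The pileups thus differed far less between the lines than the folds did. Rad21 had a fold of 14.7 in B2B with its summit 9 bp from the start site, higher than at 88.1% of the peaks of that list.

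No Jun-family peak lay within 3 kb of the long-form start of LAMA3 in either line, and the nearest regions were 4.7 kb upstream and 6.1 kb downstream. The strongest Jun peak counted at its promoters lay near an internal start site, at +139.2 kb, with a fold of 8.52 in A549 (16 reads) and 18.02 in B2B (38 reads). B2B alone had further Jun peaks near internal starts, 148378 bp downstream with a fold of 13.86 (29 reads) and 149822 bp downstream with 7.85 (16 reads). The former overlapped a pol II peak of B2B with a fold of 6.73 (17 reads over 1.7), higher than the 2.31 at the long-form start. The region at +6.1 kb, in an intron (chr18:23695319-23695764), had the highest summed fold of the 3 Jun-family proteins near LAMA3 in both lines. Jun had a fold of 32.1 in A549 and 38.4 in B2B with its summit at the same base, JunB had 9.84 and 9.09, and JunD had a peak in B2B alone, at 8.09. The region at +30.4 kb, also intronic, held 3 copies of the motif and was of like strength, with Jun at 22.4 in A549 and 34.4 in B2B. A further strong site, 61.9 kb upstream in an intron of ANKRD29, held all 3 proteins in both lines, with Jun at 18.0 in A549 and 36.5 in B2B.

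The short-form start of LAMA3 differed from the long-form start. The RefSeq promoter window there, which runs from 250 bases before to 50 bases after the start, holds the AP-1 motif at 2 places, marked by capitals in the sequence below (GRCh38.p14).
LAMA3 promoter, chr18:23872770-23873069, plus strand: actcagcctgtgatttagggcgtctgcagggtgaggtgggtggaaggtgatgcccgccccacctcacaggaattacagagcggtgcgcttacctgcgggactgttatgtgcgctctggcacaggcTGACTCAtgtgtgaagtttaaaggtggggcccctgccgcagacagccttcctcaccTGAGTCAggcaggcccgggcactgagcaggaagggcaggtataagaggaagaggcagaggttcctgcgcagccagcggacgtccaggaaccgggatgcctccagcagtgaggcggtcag
None of the 13 lists that cover the gene had a peak in this window, and the nearest Jun-family peak was a Jun peak of B2B 17.6 kb away. The motif is present in 4.95% of the 35116 RefSeq promoter windows and in 2 of the 8 windows of the 6 laminin genes.

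Across the LAMA3 body, which spans 266.8 kb, the number of Jun peaks was 4 in A549 and 15 in B2B. That of JunB peaks was 2 and 3, and that of JunD peaks 0 and 3. Relative to other protein-coding genes, the density lay at percentiles 64.2 and 89.3 for Jun and 66.1 and 92.4 for JunB. For JunD in B2B it lay at percentile 94.9. These percentiles count the genes at or below a value, and many genes had no peak. In B2B a gene without a peak already lay at percentile 86.2 for JunB and 89.5 for JunD. Percentiles of the lines are thus not on a like scale. Of the 26 Jun-family regions within 100 kb of a start site, 15 were found in B2B alone, 4 in A549 alone and 7 in both lines. In 14 of the 15 regions of B2B alone, Jun was the only Jun-family protein. The share of B2B-alone regions, 57.7%, is read below against the background of all genes.

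LAMA4 (ENSG00000112769.20, chr6:112107931-112254939, minus strand) encodes the α4 chain, a major chain of vascular and mesenchymal basement membranes. It had H3K4me3 and H3K27ac but no pol II peak near any start site in either line. The H3K4me3 peak had a fold of 12.8 in A549 (43 reads over 2.4) and 2.73 in B2B (80 reads over 28.7), and the summits lay 574 and 563 bp downstream of the canonical start. The H3K27ac peak had a fold of 11.7 in A549 (26 reads over 1.3) and 2.77 in B2B (54 reads over 18.9). In A549 both marks were weak for a promoter, at percentiles 7.5 and 8.1 among genes with a peak.

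No Jun-family region lay within 3 kb of the canonical LAMA4 start, and only 9 lay within 100 kb of any start site, of which 5 were found in B2B alone, 1 in A549 alone and 3 in both lines. The strongest Jun peak counted at its promoters lay at an internal start site, at +37.7 kb, with a fold of 8.52 in A549 (16 reads) and 13.9 in B2B (29 reads). A549 alone had a further Jun peak near an internal start, at +39.7 kb, with a fold of 7.01 (13 reads). The strongest region in A549 was intronic at +50.4 kb, with Jun at 22.7 in A549 and 6.47 in B2B, and JunB at 3.51 in A549 alone. The strongest in B2B lay beyond the 3′ end of the gene, 216.6 kb from the canonical start (chr6:112037755-112038216), with Jun at 19.0, JunB at 5.22 and JunD at 3.64, and no Jun-family peak in A549. It is nearer to a start site of CCN6, 15.9 kb away, than to one of LAMA4. The 101 bases around its Jun summit are shown, with the AP-1 motif in capitals, because all 3 proteins were found there in B2B and none in A549. Like all summit windows below, they are given on the plus strand of hg38.
LAMA4 +216.6 kb, chr6:112037904-112038004: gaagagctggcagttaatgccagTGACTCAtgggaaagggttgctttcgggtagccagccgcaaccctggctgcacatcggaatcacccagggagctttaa

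LAMA5 (ENSG00000130702.15, chr20:62307955-62367312, minus strand) encodes the α5 chain, the most widespread α chain of adult epithelia and a chain of the mature lung. A549 had an H3K4me3 peak of 6457 bp over its start, wider than 99.7% of the H3K4me3 peaks of that list, with a fold of 42.8 (198 reads over 3.6). B2B had one of 609 bp with a fold of 1.60 (141 reads over 87.5), and the summits lay 405 and 367 bp downstream of the start. H3K27ac in B2B had 10 peaks around LAMA5 start sites. The strongest had a fold of 7.60 (178 reads over 22.6) and lay 16907 bp downstream of the canonical start, while the peak at the canonical start itself had 2.87 (179 reads over 61.7). Pol II had no peak at LAMA5 in B2B, and the A549 lists of pol II and H3K27ac ended before the gene.

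LAMA5 was the gene with the most Jun-family regions of A549 alone: 10 of its 14 regions, compared with 1 of B2B alone and 3 in both lines. A start site of LAMA5 was the nearest protein-coding start for only 8 of the 14. Regions of A549 alone also lay at or near starts of OSBPL2, ADRM1, RPS21 and CABLES2. The strongest of the 14 in A549 was the intronic region at +17.2 kb (chr20:62349741-62350469). It held all 3 proteins in A549, with Jun at 31.7, JunB at 18.1 and JunD at 10.1, and Jun at 7.12 in B2B. Here again the background differed, since the Jun pileup was 84 reads over 1.7 in A549 and 106 reads over 14 in B2B. Intronic regions at +11.6 and +7.7 kb also had a higher Jun fold in A549, with 30.1 and 16.8 in A549 and 4.05 and 4.03 in B2B. Pileup and background are not given for the regions at +11.6 and +7.7 kb, and the part of the background in their folds was not tested. The H3K27ac peaks of B2B overlapped all 3 of the regions at +17.2, +11.6 and +7.7 kb.
LAMA5 +17.2 kb, chr20:62350062-62350162: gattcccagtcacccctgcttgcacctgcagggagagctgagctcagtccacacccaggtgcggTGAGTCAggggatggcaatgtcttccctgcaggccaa
Outside the gene, regions where JunB, Jun and JunD were all called in A549 and none in B2B lay at the start of ADRM1, 65.2 kb from the LAMA5 start (chr20:62301927-62302341, Jun at 12.6), and at a start site of OSBPL2, 129.1 kb away (chr20:62237957-62238477, Jun at 13.8). Both overlapped H3K4me3 in A549, and the first also overlapped H3K4me3, H3K27ac, CTCF and Rad21 in B2B. The strongest region of B2B was a Jun peak of 7.63 in an intron of OSBPL2, with no peak of A549.

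Next, the β chains were examined. LAMB1 (ENSG00000091136.15, chr7:107923799-108003213, minus strand) encodes the β1 chain, which pairs with several α chains in most basement membranes. Its start was marked by pol II, H3K4me3, Med1 and H3K27ac in both lines. Pol II had a fold of 23.02 in A549 (79 reads over 2.5) and 2.36 in B2B (73 reads over 30.4), H3K4me3 had 42.6 (162 over 2.8) and 4.64 (139 over 29.2), and H3K27ac had 64.9 (221 over 2.4) and 8.14 (163 over 19.1). The strongest Med1 peak, from lists of like median background, had a fold of 6.11 in A549 (15 reads) and 7.06 in B2B (18 reads). The peaks were 3350 bp wide in A549 and 2176 bp in B2B for H3K4me3, 2521 and 2252 bp for H3K27ac, and 1707 and 175 bp for pol II. A549 alone had Jun-family peaks at the start, with Jun at 8.72 (20 reads) and JunB at 6.13 (25 reads), with summits at −356 and −388 bp from the canonical start.

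Further upstream of LAMB1, the region at −9.5 kb (chr7:108012504-108012903) held Jun at 19.7, JunB at 14.5 and JunD at 5.10 in A549, overlapped pol II, Med1 and H3K27ac peaks there, and had no peak of any of the 9 lists in B2B. No AP-1 motif was found in this region. At −12.1 kb, Jun had a fold of 20.4 and JunB 19.1 in A549, and Jun had 9.24 in B2B. In contrast, a Jun peak with a fold of 42.5 in B2B, 42.2 kb upstream in an intron of LAMB4, had no Jun-family peak in A549. The strongest region of LAMB1 in both lines was intronic at +53.8 kb (chr7:107949095-107949635), where all 3 proteins were found in both lines, with Jun at 32.9 in A549 and 29.9 in B2B and summits 1 bp apart. It holds no AP-1 motif either. The region at −42.2 kb likewise holds none. The windows of the regions at −9.5 and +53.8 kb are shown as examples of strong sites without the motif, and so have no capitals.
LAMB1 −9.5 kb, chr7:108012628-108012728: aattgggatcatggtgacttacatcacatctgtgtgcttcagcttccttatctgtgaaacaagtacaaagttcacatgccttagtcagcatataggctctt
LAMB1 +53.8 kb, chr7:107949330-107949430: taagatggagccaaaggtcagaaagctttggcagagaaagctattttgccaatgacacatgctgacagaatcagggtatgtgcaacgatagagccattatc
The body of LAMB1 also held 11 pol II peaks in A549 and 5 in B2B, at density percentiles 79.9 and 81.1 among protein-coding genes. A gene without a pol II peak lay at percentile 28.7 in A549 and 48.3 in B2B. Jun had 1 peak in the LAMB1 body in A549 and 6 in B2B, at percentiles 62.0 and 93.1. Of its 19 Jun-family regions, 4 were found in A549 alone, 8 in B2B alone and 7 in both lines.

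LAMB3 (ENSG00000196878.15, chr1:209614870-209652425, minus strand) encodes the β3 chain, which joins α3 in the laminin of epithelial anchorage. It was the laminin gene whose marks were called in A549 and not in B2B. At its start, A549 had pol II with a fold of 7.16 (18 reads over 1.7), H3K4me3 with 4.69 (19 reads over 3.3) and H3K27ac with 10.6 (27 reads over 1.6), and B2B had no peak of pol II, H3K4me3, Med1, H3K27ac, CTCF or Rad21 within 3 kb of any start site. The marks of A549 were among the weakest of their lists, at percentiles 5.8, 1.2 and 7.2 among genes with a peak. The background of the B2B lists at LAMB3 is not known, because no peak was called there.

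JunB peaks were found at 3 places near the LAMB3 start. JunB in A549 had folds of 17.1 (51 reads) 972 bp downstream of the canonical start, 15.2 (52 reads) 738 bp upstream and 9.18 (27 reads) 2980 bp downstream, and no JunB peak was called in B2B. Jun, in contrast, was found in both lines at the same 2 places. Jun had a fold of 8.30 in A549 (24 reads over 2.0) and 8.59 in B2B (52 reads over 5.2) near +1.0 kb, and 8.99 (17 reads over 1.0) and 11.02 (29 reads over 1.7) near +3.0 kb. The site at +1.0 kb lies in the RefSeq promoter of a further start of LAMB3, which holds the AP-1 motif. It is printed below, on the strand of the gene, because a start site, a motif and Jun in both lines meet there.
LAMB3 promoter, chr1:209651325-209651624, minus strand: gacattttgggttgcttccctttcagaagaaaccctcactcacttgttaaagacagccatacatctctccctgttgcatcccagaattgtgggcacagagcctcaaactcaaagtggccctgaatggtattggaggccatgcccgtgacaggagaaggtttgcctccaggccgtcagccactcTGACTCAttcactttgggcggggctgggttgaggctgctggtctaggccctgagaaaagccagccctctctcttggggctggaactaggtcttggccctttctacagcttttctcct
LAMB3 had 10 Jun-family regions within 100 kb of a start site, of which 4 were found in A549 alone, 3 in B2B alone and 3 in both lines. The strongest in A549 was 95.5 kb upstream (chr1:209747705-209748230), nearer to a start site of TRAF3IP3. All 3 proteins were found there in A549, with Jun at 31.0, JunB at 28.0 and JunD at 6.99, together with pol II, H3K4me3, Med1 and H3K27ac. In B2B it held Jun at 6.87 and JunB at 3.26, together with Med1, CTCF and Rad21.
LAMB3 −95.5 kb, chr1:209747855-209747955: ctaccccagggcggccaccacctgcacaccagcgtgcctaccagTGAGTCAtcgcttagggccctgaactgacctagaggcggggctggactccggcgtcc

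LAMC1 (ENSG00000135862.6, chr1:183023420-183145592, plus strand) encodes the γ1 chain, the most widespread γ chain of the laminins. Among those of the 6 laminin genes that each list covered, its promoter had the highest folds of pol II, Med1 and H3K27ac in A549. Pol II had a fold of 79.9 in A549 (283 reads over 2.6) and 3.5 in B2B (150 reads over 42.2), H3K4me3 had 42.8 (186 over 3.4) and 2.92 (175 over 59.3), and H3K27ac had 101 (344 over 2.4) and 8.93 (337 over 36.8). For H3K4me3 and H3K27ac the pileups were nearly equal in the lines. Med1 had a fold of 26.1 in A549 (81 reads over 2.1) and 8.04 in B2B (39 reads over 4.0), at percentiles 95.9 and 43.8 among genes with a Med1 peak.

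Some 0.7 kb upstream of the LAMC1 start, the region at chr1:183022328-183023038 held all 3 Jun-family proteins in A549, with Jun at 18.2, JunB at 12.03 and JunD at 5.19, and Jun alone in B2B, at 7.52. The Jun pileup was 63 reads over 2.5 in A549 and 69 reads over 8.3 in B2B. The window around its summit holds the motif at 2 places.
LAMC1 −0.7 kb, chr1:183022456-183022556: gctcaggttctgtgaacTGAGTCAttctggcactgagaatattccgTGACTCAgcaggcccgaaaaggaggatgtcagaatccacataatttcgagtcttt
The Jun-family region with the highest summed fold of all 102 in A549 lay in an intron 37.2 kb downstream of the start (chr1:183060381-183060853). All 3 proteins were found in both lines, with Jun at 75.4 in A549 and 35.4 in B2B, JunB at 37.8 and 7.13, and JunD at 19.0 and 8.54, and the Jun summits were 1 bp apart. The Jun peak of A549 had 188 reads over 1.5 and a higher fold than 99.8% of the Jun peaks of its list. It overlapped pol II and Med1 in A549 and none of the other targets in B2B.
LAMC1 +37.2 kb, chr1:183060554-183060654: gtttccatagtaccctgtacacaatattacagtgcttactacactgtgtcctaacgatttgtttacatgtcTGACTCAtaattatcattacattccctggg
LAMC1 had 24 Jun-family regions within 100 kb of a start site, of which 7 were found in A549 alone, 8 in B2B alone and 9 in both lines.

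To compare the loci as a whole, JunB, Jun and JunD peaks of both lines were merged into regions. Within 100 kb of a start site of the 6 genes there were 102 regions, of which 30 (29.4%) were found in A549 alone, 40 (39.2%) in B2B alone and 32 (31.4%) in both lines. Over the 55710 regions near protein-coding genes the shares were 34.8%, 38.0% and 27.2%, so the laminin loci together lay near the background. The genes lay on both sides of it. LAMA5 had 71.4% of its regions in A549 alone, and LAMA3 and LAMA4 had 57.7% and 55.6% in B2B alone. Regions of all 3 proteins in A549 with none in B2B numbered 3, beside 3.85% of all regions, and those of all 3 in B2B with none in A549 numbered 2, beside 1.12%. The gene a region was assigned to held the nearest protein-coding start site for 60 of the 102 regions, and for 8 of 14 at LAMA5. The others lay nearer to another gene.

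**Figure D3:**
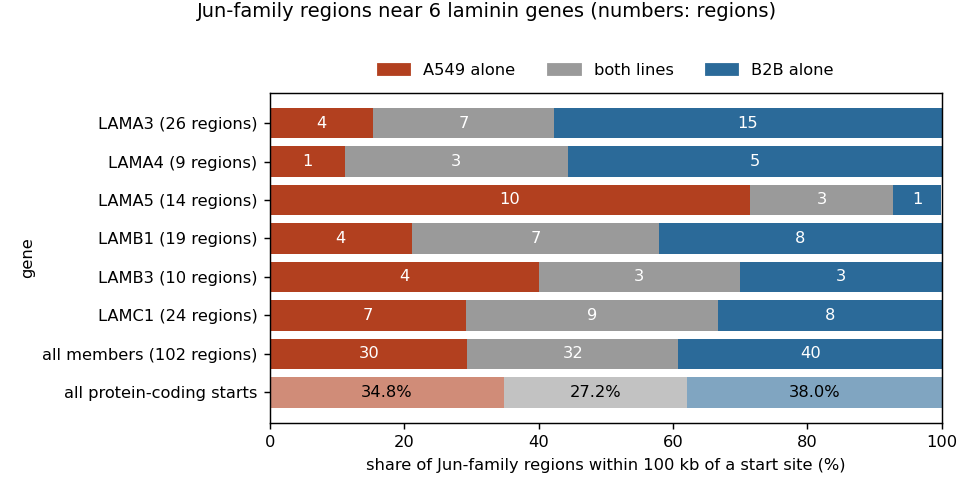
Share of the Jun-family regions within 100 kb of a start site that were found in A549 alone (red), both lines (grey) and B2B alone (blue), with the number of regions written in each bar. The last bar gives the shares over all regions near protein-coding genes. LAMA5 had 10 of 14 regions in A549 alone, and LAMA3 had 15 of 26 in B2B alone.

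The proteins behind the regions were then counted. The same counts over all regions near protein-coding genes were not made. The counts of this paragraph are therefore not read as particular to the laminin genes. Of the 30 regions of A549 alone, 21 held JunB, 24 held Jun and 3 held JunD, and 15 held JunB and Jun together. Of the 40 regions of B2B alone, 39 held Jun, 6 held JunB and 2 held JunD, and Jun was the only protein in 34. In the 32 shared regions JunB was found in 25 in A549 and in 10 in B2B, and Jun in 31 in each line. The order of the lines was also that of the whole lists, which held 28068 JunB peaks in A549 and 8563 in B2B, compared with 35602 and 45047 Jun peaks. In the 31 regions with Jun in both lines the summits lay a median of 15 bp and at most 135 bp apart, and 27 pairs lay within 50 bp. The Jun fold was higher in A549 in 16 of them and in B2B in 15. By gene it was higher in A549 in 3 of 3 at LAMA5 and 6 of 7 at LAMB1, and in 1 of 7 at LAMA3. It was higher in A549 in 4 of 8 at LAMC1 and in 1 of 3 at each of LAMA4 and LAMB3. The order of the folds is not that of the pileups everywhere, since at +17.2 kb of LAMA5 the Jun pileup was higher in B2B, over a higher background.

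**Figure D4:**
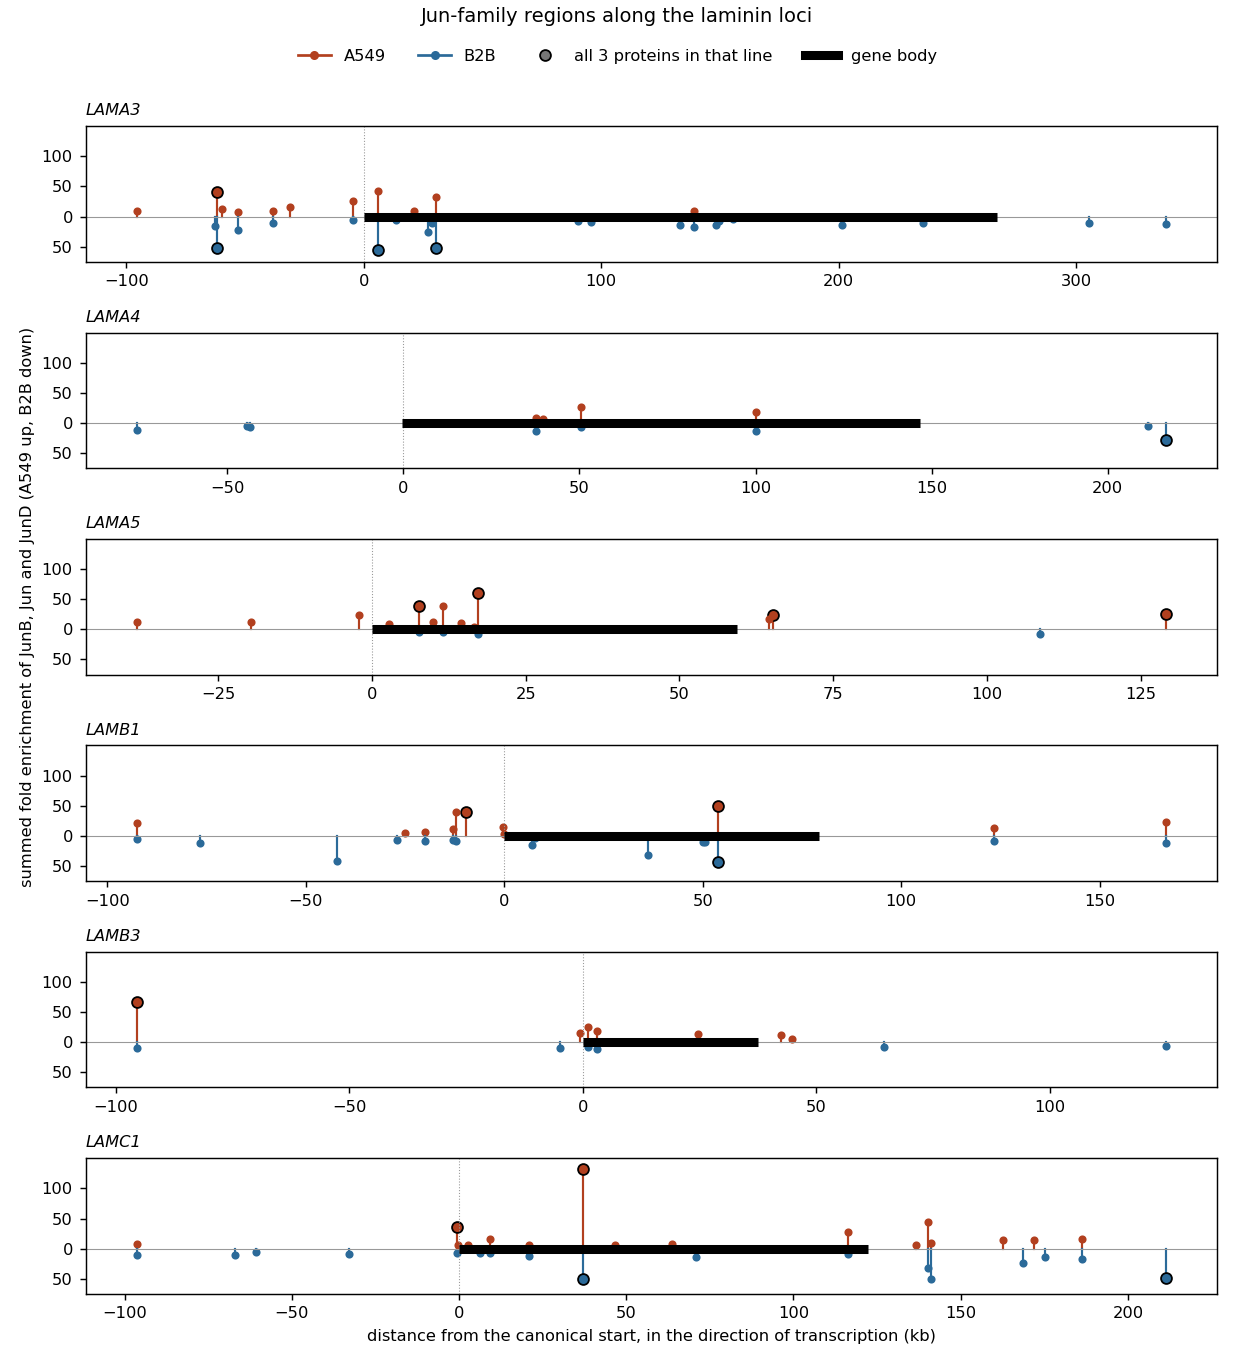
Jun-family regions along each laminin locus, by distance from the canonical start in the direction of transcription (kb). The height is the summed fold enrichment of JunB, Jun and JunD, upwards for A549 (red) and downwards for B2B (blue), large outlined circles mark regions of all 3 proteins in that line, and the thick black line is the gene body. The region at +37.2 kb of LAMC1 reached 132 in A549 and 51.0 in B2B, and the LAMA3 body held more stems of B2B than of A549.

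In the gene bodies as a whole, the Jun-family lists held 48 peaks in A549 and 47 in B2B over the 6 genes. JunB had 19 in A549 and 7 in B2B, Jun had 24 and 35, and JunD had 5 and 5. Among protein-coding genes, the density of Jun peaks lay at percentiles 62.0 to 90.9 in A549 and 72.4 to 93.1 in B2B, by gene. The median Jun density over protein-coding genes was 0 in both lines, so a gene without a Jun peak did not lie low on this scale. With lists of equal length the Jun-family counts were 38 in A549 and 43 in B2B. Pol II, H3K4me3, Med1 and H3K27ac together had 53 peaks in A549 and 26 in B2B over the pairs that both lists covered, but when the longer list of each target was shortened to the number of peaks of the shorter one, 28 remained in A549 and 26 in B2B.

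To ask how often the AP-1 motif lay under these peaks, the 101 bases centred on each summit were searched. In A549, 62 of the 113 Jun-family peaks near the laminin genes held it (54.9%, 95% Wilson interval 45.7 to 63.7), compared with 42.6% of all peaks of the 3 lists. In B2B it was 46 of 94 (48.9%, 39.1 to 58.9), compared with 42.2%. The share for JunB was 58.7% in A549 and 62.5% in B2B, compared with 46.2% and 53.6% of the whole lists. That for Jun was 49.1% and 44.3%, compared with 42.0% and 39.8%. That for JunD was 66.7% and 62.5%, compared with 34.2% and 42.8%, with 12 and 8 peaks only near the laminin genes. The 6 shares near the laminin genes overlapped each other in their intervals. Windows 2 kb away from the summits held the motif in 1.29% to 1.74% of cases. Peaks of the 3 proteins at the same place share their sequence and are counted more than once, so the intervals, which cover counting error only, are too narrow.

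Finally, the other genes of the laminin system were examined at their start sites. Of the 6 other laminin chain genes, H3K4me3 was found at 5 in A549 and 2 in B2B, beside 73.7% and 62.7% of all genes, and Jun at 3 in A549 and 4 in B2B, beside 38.2% and 25.4%. JunB was found at 2 in A549 and 1 in B2B. JunD was found in each line at LAMA2 alone, the gene of the α2 chain of muscle basement membranes, with a fold of 6.49 in A549 and 10.36 in B2B. JunB had a fold of 16.4 there in A549 and 7.81 in B2B, and Jun had 41.4 and 30.0.

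Of the 10 genes for basement membrane partners such as nidogens, perlecan and collagens, H3K4me3 was found at 9 in A549 and 7 in B2B, beside the same shares of all genes as above. JunB was found at 5 in A549 (HSPG2, AGRN, COL4A2, COL7A1 and NTN4) and 2 in B2B (HSPG2 and COL7A1). COL7A1, the anchoring fibril collagen, was the one of them with JunD in both lines, with a fold of 12.1 in A549 and 3.78 in B2B. Of the 8 laminin receptor genes, H3K4me3 was found at all 8 in each line, beside 73.7% and 62.7% of all genes. JunB was found at 5 of them in A549 (ITGA3, ITGA6, ITGB1, ITGB4 and RPSA) and at 2 in B2B (ITGA3 and ITGB1), and JunD at 4 in A549 (ITGA3, ITGB1, ITGB4 and RPSA) and at 0 in B2B, beside 17.8% and 3.21%. ITGB1, the integrin β1 subunit, had the highest of these JunB folds, at 47.1 in A549 and 4.70 in B2B, and ITGB4, the integrin β4 subunit of hemidesmosomes, had JunB at 14.7 and Jun at 12.4 in A549 and no Jun-family peak in B2B. As at the 6 laminin genes, JunB was called at more of these genes in A549 than in B2B, which is also the order of the JunB lists and of the 31.1% and 5.28% over all genes.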

How the data were processed

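The labels describe 36 ChIP-seq samples in 18 groups of 2, of which 4 input samples were not analysed here. Per the methods and labels, the authors aligned reads to hg38 with Bowtie2 2.4.4, removed duplicates, merged replicates, scaled them with SAMtools 1.13 and called peaks with MACS2 2.2.7.1, whose options and control were not given in the sources used here. Per peak, the authors deposited a score (10 times −log10 q, whole), the fold enrichment (a ratio), and −log10 of the p-value and of the q-value, which was above 2 throughout.

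Starts came from GENCODE release 44 and promoters from RefSeq (GRCh38.p14). Peaks were intersected (1 bp) in Python 3.11.15, NumPy 2.4.6 and pandas with SciPy for intervals and pysam for sequence. Pileup and background were solved from fold and p-value, to within 0.01 of the −log10 p for 100% of 1000 peaks a list; overlaps and this step were tested on simulated data. A region is merged Jun-family peaks. Members and lists were chosen with earlier results of these data known. Regions named are, per gene, the highest summed fold in each line and those of all 3 proteins in 1 line and none in the other; the regions at −4.7, −12.1, −42.2, −61.9, +7.7, +11.6 and +30.4 kb and the start sites' own were named after their values were seen. Alternatives were other distances, start sites, thresholds, list lengths, overlaps and motif windows. Some results that the rule names are not reported here.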

Additional observations from a re-analysis of the deposited data

How the results depend on the processing

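No paired analysis was possible because replicates were merged before peaks were called, so that no list per replicate was used and no replicate could be left out either. Of 65 values recomputed under the alternatives, 61 stayed within 1.5 times the value given, or within its interval for the motif shares. The number of pairs of a laminin gene and a Jun-family protein in B2B rose from 6 to 11 within 10 kb of a start site, where A549 had 15, and fell to 2 with the start of the gene only, where A549 had 9, and A549 stayed above B2B in both. The peaks of pol II, H3K4me3, Med1 and H3K27ac in the gene bodies of A549 fell from 53 to 28 with lists of equal length. The number of regions of all 3 proteins in B2B and none in A549 fell from 2 to 0 within 50 kb of a start site. LAMA3 and LAMA5 could not be scored where lists ended, and the depth behind the lists is unknown.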

Other observations

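CTCF and Rad21 were analysed in B2B alone and gave a further view of the laminin loci. Inside LAMA4, CTCF and Rad21 met at 2 sites: 91068 bp downstream of the canonical start CTCF had a fold of 27.2 (162 reads) and Rad21 one of 16.7 (74 reads), and 74279 bp downstream CTCF had 24.3 (60 reads) and Rad21 14.7 (25 reads). At the starts of LAMA3, LAMB1 and LAMC1, CTCF folds were low, at 2.88, 3.41 and 4.45, over backgrounds of 24.0, 17.5 and 23.5 reads. Upstream of LAMA5, 1741 and 1801 bp from the start, CTCF had a fold of 4.32 and Rad21 one of 7.63.

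Of the 40 Jun-family regions found in B2B alone near the laminin genes, 19 overlapped a CTCF peak of B2B, where 28.9% of all B2B-alone regions near protein-coding genes did, and 3 overlapped Rad21, against 6.21%. Of the 30 regions of A549 alone, 9 overlapped a B2B CTCF peak, against 15.7%, and 12 overlapped Rad21, against 31.5%. Of the 32 shared regions, 7 overlapped CTCF, against 42.5%. Regions of 1 locus are not independent, and these counts were not tested.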
